A study of Macaca mulatta with 449 samples.

Results

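*TCF7L2*, *SHOX2*, *NTNG1*, *NTS*, *IL12B*, *FAM19A4* and *NDC80* are 7 of the 30807 genes in the count table of a rhesus macaque brain atlas. They were chosen because their counts in the thalamus (THA) stood above those of the other sub-regions in these same samples, so their thalamic levels are described below and not tested. The study dissected the brains of 8 healthy rhesus macaques and sequenced the RNA left after removal of ribosomal RNA, and samples of 51 sub-regions, each taken from all 8 animals, were used here. The 51 sub-regions fell into 16 region groups, with 31 sub-regions in the cerebral cortex and a single sub-region for the thalamus.

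The animals are named by the numbers of the labels. Rhesus 2 (10 years) and Rhesus 3 (10 years) were mid-aged males, and Rhesus 7 (4 years) and Rhesus 8 (3.8 years) were young males. Rhesus 6 (10 years) and Rhesus 11 (9.8 years) were mid-aged females, and Rhesus 4 (3.2 years) and Rhesus 10 (5 years) were young females. No animal was treated. By the study's methods a piece of a few cubic millimetres was taken from each sub-region by landmarks of an atlas, so each thalamic sample was part of the thalamus with nuclei of unknown share. In such bulk tissue, fewer cells of a type and less RNA per cell cannot be told apart.

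The thalamus relays sensory, motor and limbic signals to the cortex. Most of its projection neurons are glutamatergic, load their vesicles with the transporter SLC17A6 and fire bursts through T-type calcium channels such as CACNA1G, while the surrounding reticular nucleus is GABAergic. In the developing thalamus the homeobox factor GBX2 and the Wnt effector TCF7L2 mark the relay territory, and TCF7L2 is kept in adult relay neurons.

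Levels are given as CPM, counts scaled to a common library size that was adjusted with the TMM method of edgeR. A level of a region group is the mean of its sub-regions within an animal, and the error is the SD over animals (n = 8 unless stated). The totals of all samples ran from 7784678 to 31083490 counts with a median of 10698602, and those of the 8 thalamic samples from 9408110 to 14435755 with a median of 12490678. Gene lengths of this annotation were not used, so levels are not compared between genes.

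The thalamic samples held the markers of their label. The summed level of 6 thalamus markers (*GBX2*, *LHX2*, *FOXP2*, *RORA*, *CACNA1G*, *SLC17A6*) was highest of the 16 groups in THA, at 681 CPM in the lowest, 1370 in the median and 1563 in the highest sample. Most of the sum came from *SLC17A6* and *CACNA1G*, and *LHX2* by itself was not highest in THA. The lowest sum was that of Rhesus 8, and the other 7 samples lay at 1200 CPM or above. The same sample had the highest sum of 8 oligodendrocyte markers, 24324 CPM against a median of 15929, and the lowest sum of 3 GABAergic markers, 222 CPM against a median of 387. Of 4 neocortical markers the sum lay between 4.97 and 8.16 CPM, where the hippocampus, the highest group, had 308. Of 6 hypothalamic markers the sum lay between 0.801 and 3.90 CPM, and *HCRT*, *SIM1* and *OTP* had at most 3 counts in every thalamic sample. The 5 habenula markers summed to between 25.7 and 46.3 CPM, mostly from *CHRNA3*, and THA was the highest group for them. The defining habenula factor *POU4F1* had 0 to 6 counts. For the ependymal markers with an identifier THA was the highest group as well, with sums between 70.5 and 108 CPM.

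**Figure D1:**
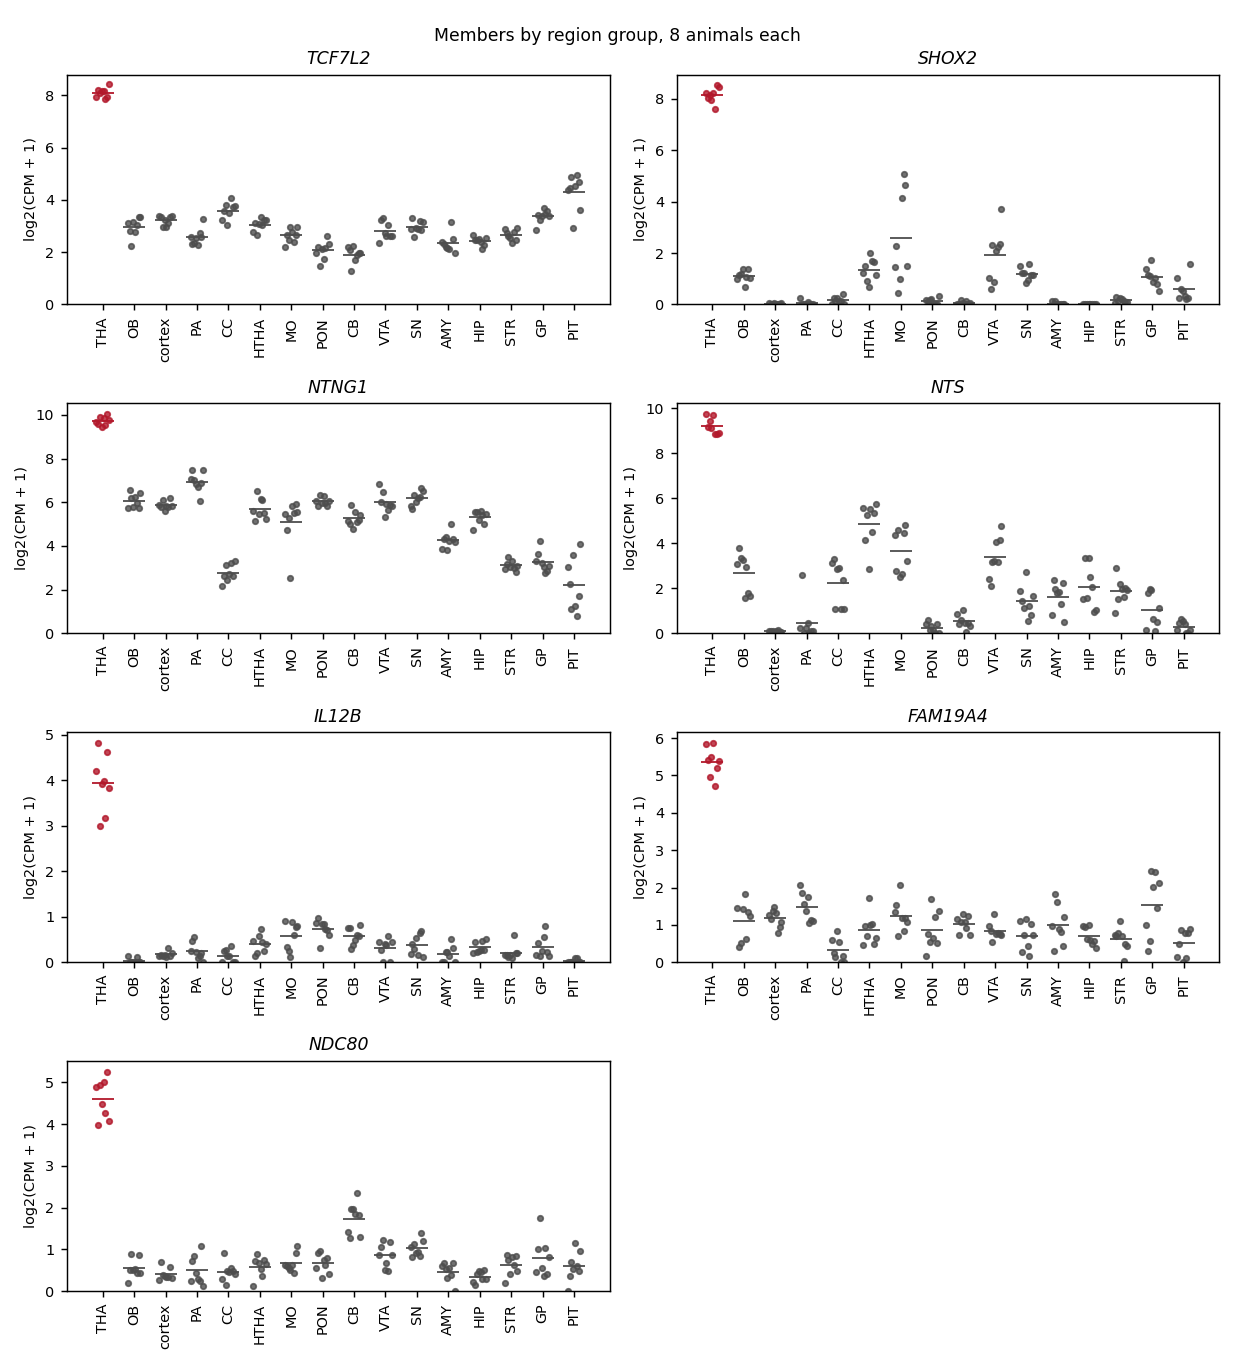
Level of each of the 7 genes in the 16 region groups, as log2(CPM + 1), with 1 point for each of 8 animals and a bar at their mean. In each panel the 8 thalamic points (red) lie above all points of the other groups, since the genes were chosen on this difference.

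Among the transcription factors, *TCF7L2* (ENSMMUG00000022799) binds DNA with beta-catenin at targets of the Wnt pathway. It had 228 CPM in the lowest, 276 in the median and 344 in the highest thalamic sample, a mean of 274 ± 37.2. The pituitary (PIT) followed at 20.4 ± 8.07 CPM, from 6.51 to 30.1, so that the thalamic mean was 13.4 times as high. PIT differed from the next group, the corpus callosum (CC) at 11.3 ± 2.74, by more than the spread of the paired difference, and was above it in 6 of 8 animals. From CC down to the cerebellum (CB) at 2.82 ± 0.736 CPM, no neighbours in the order differed beyond their spread. *TCF7L2* was counted in every sample, and 43.5% of its counts came from the 8 thalamic ones.

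*SHOX2* (ENSMMUG00000019030) is a homeobox factor best known from limb growth and from the pacemaker cells of the heart. Its thalamic level was 195 CPM in the lowest, 292 in the median and 366 in the highest sample, with a mean of 288 ± 55.9. Of the 400 samples outside the thalamus, 258 had 0 counts, and THA held 93.5% of all its counts. The medulla oblongata (MO) came next with 10.3 ± 12.6 CPM, and its 8 samples did not lie together. Rhesus 8, Rhesus 10 and Rhesus 7 had 33.1, 23.9 and 16.5 CPM in MO, and the other 5 animals 0.366 to 3.90 CPM. The 3 high animals were young, but the fourth young animal, Rhesus 4, had the lowest value. Behind MO came the ventral tegmental area (VTA) at 3.72 ± 3.77 CPM and the hypothalamus (HTHA) at 1.63 ± 0.784, and no neighbours from MO to the cortex differed beyond their spread. At the bottom of the order the hippocampus (HIP) had 1 count in its 24 samples and the amygdala (AMY) 2 counts in 8.

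*NTNG1* (ENSMMUG00000008197) encodes netrin-G1, a lipid-anchored protein of axons that binds the synaptic adhesion protein encoded by *LRRC4C*. It reached 698 CPM in the lowest, 843 in the median and 1066 in the highest thalamic sample, with a mean of 852 ± 121. It was also the member with the most counts elsewhere, and THA held 26.3% of them. Among the region groups the entorhinal and perirhinal cortex (PA) followed with 126 ± 37.3 CPM, from 65.4 to 179, a thalamic fold of 6.76. Among single sub-regions the posterior superior occipital gyrus of the cortex was as high, at 127 ± 18.2 CPM, a thalamic fold of 6.72. PA stood above the next group, the substantia nigra (SN) at 73.5 ± 16.7, by more than the spread of the difference, and was higher in 7 of 8 animals. From SN to CB at 38.3 ± 10.1 neighbours did not differ beyond their spread, and then came drops to AMY at 18.8 ± 5.58 and to the globus pallidus (GP) at 9.08 ± 3.84, each seen in 8 of 8 animals. PIT was lowest, at 5.43 ± 5.56 CPM, and ran from 0.722 to 16.1.

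Of the 3 genes of secreted proteins, *NTS* (ENSMMUG00000023155) encodes the precursor of neurotensin, a neuropeptide that acts on dopamine systems, body temperature and pain. Its thalamic samples had 462 CPM at the lowest, 568.5 at the median and 844 at the highest, with a mean of 612 ± 158. Rhesus 2 and Rhesus 7, both males, had the highest levels, 844 and 831 CPM, and the other 6 samples lay between 462 and 686. HTHA, where neurotensin neurons are well known, followed at 33.2 ± 16.4 CPM, a thalamic fold of 18.4. HTHA was above MO (14.4 ± 9.26) in 8 of 8 animals and by more than the spread of the difference. The lowest HTHA sample, 6.31 CPM, was that of Rhesus 6. Below MO no neighbours differed beyond their spread. In the hippocampus *NTS* was not evenly placed, with 8.50 ± 8.18 CPM in CA1, 3.18 ± 6.35 in CA3 and 0.319 ± 0.253 in the dentate gyrus, and in the striatum it had 5.84 ± 3.10 CPM in the nucleus accumbens and 0.754 ± 0.586 in the putamen. In the cortex it was near absent, with 190 counts in 248 samples, of which the anterior cingulate gyrus (ACG) held 73.

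*IL12B* (ENSMMUG00000021701) encodes the p40 subunit that interleukin-12 and interleukin-23 share, a cytokine chain of activated myeloid cells. It was the lowest counted member, with 70 to 273 counts per thalamic sample, and had 7.00 CPM at the lowest, 14.5 at the median and 27.1 at the highest, a mean of 15.7 ± 7.00. Its highest thalamic sample was 3.87 times its lowest, the widest range of the 7 genes. Outside the thalamus 325 of 400 samples had at most 3 counts, and the next group, the pons (PON), had 0.671 ± 0.224 CPM, from 2 to 10 counts per sample. Below THA no neighbours in the order of the other 15 groups differed beyond their spread. The microglia markers with an identifier summed to between 157 and 249 CPM in THA, which ranked 7 of 16 groups.

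*FAM19A4* (ENSMMUG00000020918), also named *TAFA4*, encodes a small secreted protein of the TAFA family that is best known from sensory neurons. Its thalamic level was 25.5 CPM at the lowest, 40.9 at the median and 57.1 at the highest, with a mean of 41.4 ± 11.3. GP followed at 2.31 ± 1.68 CPM, where 4 animals (Rhesus 6, 7, 8 and 11) had 3.01 to 4.42 CPM and the other 4 had 0.222 to 1.71. No neighbours below THA differed beyond their spread, down to CC at 0.272 ± 0.281 CPM.

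*NDC80* (ENSMMUG00000018952) encodes a subunit of the outer kinetochore complex that holds chromosomes to spindle microtubules in dividing cells. In the thalamus it had 14.8 CPM at the lowest, 25 at the median and 37.0 at the highest, with a mean of 24.6 ± 8.08. CB followed at 2.44 ± 0.900 CPM and was above SN (1.07 ± 0.296) in 8 of 8 animals and by more than the spread of the difference. The cerebellar cortex (CBC) and the vermis (CBV) were alike in this, with 1.54 to 4.35 and 1.1 to 3.77 CPM. Below SN no neighbours differed beyond their spread.

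**Figure D2:**
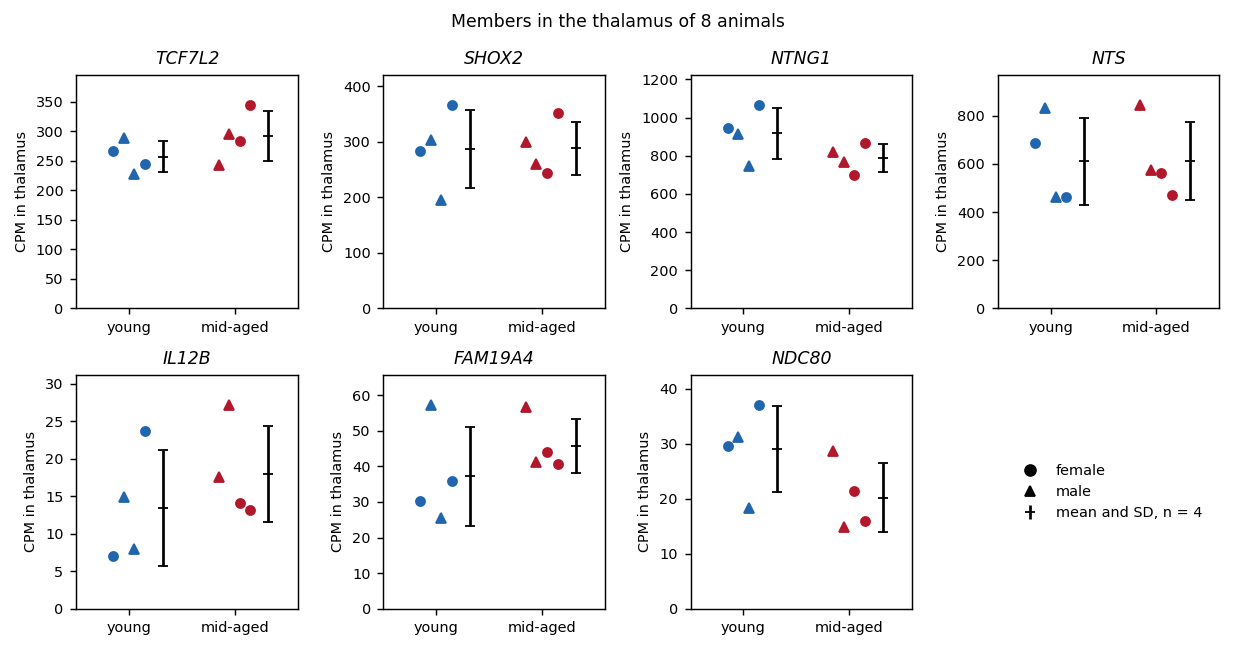
CPM of the 7 genes in the thalamus of each animal, by age stage (blue, young; red, mid-aged) and sex (circle, female; triangle, male), with mean and SD of 4 animals beside each age stage. The young and mid-aged points overlap in all 7 panels, and *NTS* is highest in 2 males.

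The thalamic levels were steady for *TCF7L2* and *NTNG1*, with a coefficient of variation of 13.6% and 14.2%, and least steady for *NDC80* (32.9%) and *IL12B* (44.6%). Rhesus 8, whose thalamus had low thalamus markers, had the lowest level of *TCF7L2*, *SHOX2* and *FAM19A4* and ranked 6 or 7 of 8 for the other 4 genes. Without it the thalamic means were 281 ± 34.8 CPM for *TCF7L2*, 301 ± 44.8 for *SHOX2* and 43.7 ± 10.1 for *FAM19A4* (n = 7). Over all 8 animals they were 274 ± 37.2, 288 ± 55.9 and 41.4 ± 11.3 CPM. The highest animal was not the same for each gene. It was Rhesus 11 for *TCF7L2*, Rhesus 10 for *SHOX2*, *NTNG1* and *NDC80*, Rhesus 2 for *NTS*, Rhesus 3 for *IL12B* and Rhesus 7 for *FAM19A4*. For each of the 7 genes the lowest thalamic sample stood above the highest of the 400 other samples, by 3.41 times for *NDC80* (against a CBC sample of Rhesus 8) up to 8.82 times for *NTS* (against the HTHA sample of Rhesus 11).

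Age stage was not used to choose the genes, and mid-aged and young animals were therefore compared in the 8 thalamic samples with sex as a covariate (edgeR quasi-likelihood test, called at FDR < 0.1 and an absolute log2FC above 1). Of the 7 members 0 were called, where 1 of 14650 genes tested was called (0.00683%). By DESeq2 0 members were called as well, and 0 members had an unadjusted p under 0.05 by either tool. *NDC80* had the largest difference. Its level was 14.8 to 28.7 CPM (20.2 ± 6.30) in the 4 mid-aged and 18.3 to 37.0 CPM (29 ± 7.81) in the 4 young animals, so the groups overlapped. Its log2FC, mid-aged against young, was -0.51 with an SE of 0.26, a 95% interval from -1.10 to 0.07 and an FDR of 0.422 (edgeR).

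*NTNG1*, with 698 to 866 CPM in mid-aged and 745 to 1066 CPM in young animals, had a log2FC of -0.22 (SE 0.13). *IL12B* had the least precise estimate, 0.39 with an interval from -0.49 to 1.26 on the log2 scale. The other log2FC were 0.18 for *TCF7L2*, 0.02 for *SHOX2*, -0.01 for *NTS* and 0.30 for *FAM19A4*, with FDR from 0.570 to 0.987 by edgeR. All of these groups overlapped. The number of age calls over all genes hung on single animals, with 479 calls without Rhesus 7, 3 without Rhesus 8 and 0 without Rhesus 2 or without Rhesus 11, and DESeq2 called 105. Over the 8 fits that lacked 1 animal, the log2FC of *NDC80* ran from -0.79 (without Rhesus 2, FDR 0.514) to -0.35 (without Rhesus 11, FDR 0.766) by edgeR, and without Rhesus 8 it was -0.71, with the lowest FDR of these fits, 0.298.

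Female and male animals were compared likewise with age stage as the covariate. Again 0 of the 7 members were called, against 18 of 14650 genes (0.123%), and DESeq2 called 0 of them among 30 genes. *NTS* had 462 to 686 CPM in females (545 ± 104) and 463 to 844 CPM in males (678 ± 190), a log2FC, female against male, of -0.32 with an SE of 0.21 and an interval from -0.79 to 0.16. *SHOX2* had 244 to 366 CPM in females and 195 to 303 in males, a log2FC of 0.24 (SE 0.18, interval from -0.16 to 0.64). All 7 genes overlapped between the sexes and had an FDR of 0.999 by edgeR. In the thalamus the choroid plexus markers with an identifier summed to 19.5 to 39.2 CPM in females and 67.6 to 301 CPM in males. These 2 ranges did not overlap. The list was picked after the sums of 15 marker lists had been seen by sex and by age stage. All other lists overlapped between the sexes, and all lists overlapped between the age stages. With so many comparisons of few animals, such a separation can arise by chance. The part of these markers in the sex differences was not tested.

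**Figure D3:**
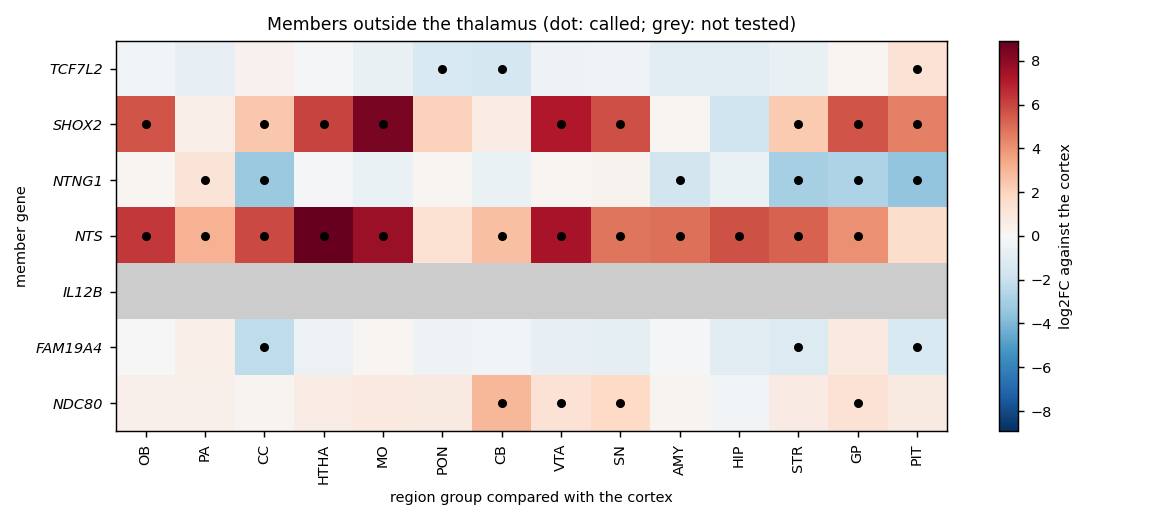
log2FC of 6 members in 14 region groups against the cortex, with the thalamus left out of the fit (red, higher than cortex; blue, lower; dot, called at FDR < 0.05 and an absolute log2FC above 1; grey, *IL12B*, not tested). The rows of *SHOX2* and *NTS* are red nearly throughout, while *NTNG1* and *FAM19A4* are called lower in PIT, CC and the striatum (STR).

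Where else the genes were used was tested without the thalamic samples, by comparing each of the other 14 groups with the cortex in edgeR with the animal as a block. The members were chosen as high in THA against all other sub-regions, 31 of them cortical, so low cortical levels were part of the choice. Calls higher than the cortex and their FDR are therefore a description and not independent of that choice. *IL12B* fell under the filter on low counts and had no test in this fit. The other 6 members gave 84 comparisons, of which 27 were called higher than cortex (32.1%) and 10 lower (11.9%). Over all genes tested in the 14 comparisons 12.5% were called higher and 12.3% lower, and between groups these shares ran from 5.10% (AMY) to 21.5% (PIT) higher and from 3.30% (PA) to 24.1% (CC) lower. The share of lower calls was near that of all genes, and 21 of the 27 higher calls were those of *SHOX2* and *NTS*, which were almost silent in the cortex.

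*NTS* was called higher than cortex in 12 of 14 groups by edgeR, the exceptions being PIT and PON, and DESeq2 called it in PIT as well (1.49, FDR 0.0256). Its log2FC was 8.92 (SE 0.62, FDR 2.96e-24) in HTHA, 7.70 (SE 0.59, FDR 3.78e-22) in MO and 7.37 (SE 0.59, FDR 3.66e-21) in VTA by edgeR, and in HTHA without the sample of Rhesus 6 it was 9.07. In PA the call rested on 1 animal. Rhesus 3 had 5.00 CPM there, the other 7 animals 0 to 0.367 CPM, and without Rhesus 3 the log2FC of 3.09 became 0.88 and was no longer called.

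*SHOX2* was called higher in 9 groups, with a log2FC of 8.49 (SE 0.55, FDR 6.16e-27) in MO, 7.12 (SE 0.53, FDR 4.37e-23) in VTA and 6.04 (SE 0.52, FDR 1.76e-18) in HTHA by edgeR. The base of these values was small, 59 counts in the 248 cortical samples. In CC it had 0 to 0.322 CPM, and its call there was lost without Rhesus 10, with a log2FC of 1.87 in place of 2.42. It was not called by edgeR in PON, CB, PA, AMY or HIP. In PON the log2FC of 2.05 was called by DESeq2 (2.23, FDR 0.00655) and by edgeR without the animal block (2.07, FDR 0.0351).

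*NDC80* was called higher in CB (log2FC 2.96, SE 0.27, FDR 2.52e-18 by edgeR), SN (1.75, SE 0.29), VTA (1.32, SE 0.31) and GP (1.28, SE 0.30). The GP value leaned on Rhesus 4, which had 2.36 CPM against 0.283 to 1.05 CPM in the other animals, and without it the log2FC was 0.91 and not called. In MO its log2FC of 0.89 was called without Rhesus 3 (1.02). *NDC80* was called lower in 0 groups.

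*NTNG1* went both ways. It was called higher in PA (log2FC 1.12, SE 0.25, FDR 0.000194 by edgeR). There it fell just under the fold limit without Rhesus 3, at 0.98, and under the study's detection rule, at 0.9998. It was called lower in PIT (-3.49, SE 0.29), CC (-3.30, SE 0.29), STR (-2.93, SE 0.27), GP (-2.75, SE 0.28) and AMY (-1.63, SE 0.26). *FAM19A4* was called lower in CC (-2.27, SE 0.45), PIT (-1.39, SE 0.41) and STR (-1.21, SE 0.35) and higher in 0 groups. Other groups lay near the limit. In GP its log2FC of 0.87 was called higher without Rhesus 3 (1.02) and without Rhesus 4 (1.08). In HIP (-0.99) it was called lower in 7 of 13 alternatives, at -1.01 to -1.14, and in SN (-0.90) in 3 of 13, at -1.03 to -1.14.

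*TCF7L2* was called higher in PIT alone (log2FC 1.3, SE 0.17, FDR 3.60e-11 by edgeR) and lower in CB (-1.57, SE 0.18) and PON (-1.35, SE 0.19). In AMY it lay at the limit (-0.99) and was called lower in 4 of 13 alternatives, at -1.01 to -1.20, the last without Rhesus 8. In HIP (-0.92) it was called lower under the study's detection rule (-1.01). In PIT 6 animals had 19.6 to 30.1 CPM, while Rhesus 6 and Rhesus 11, both mid-aged females, had 6.51 and 11.2. The same 2 samples had the highest *NTNG1* levels in PIT, 10.9 and 16.1 CPM against 0.722 to 7.24 in the others.

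The patterns of the 7 genes within the cortex were looked at after the values were seen, so they are given as a description. Among the 31 cortical sub-regions *NTNG1* was highest in the 3 sub-regions of the occipital lobe. It had 127 ± 18.2 CPM in the posterior superior occipital gyrus (pSOG), 105 ± 21.3 in IOG and 82.0 ± 20.4 in aSOG. The lowest, the superior precentral gyrus (SPrCG), had 38.9 ± 8.24 CPM. PA, kept as a region group of its own and not among the 31, had 126 ± 37.3 CPM. The mean of the 3 occipital sub-regions was 105 ± 14.3 CPM and that of the other 28 was 53.2 ± 7.88, and the occipital mean was higher in 8 of 8 animals. *TCF7L2* had an occipital mean of 10.8 ± 1.02 CPM against 8.09 ± 1.21, again higher in 8 of 8 animals, but its highest cortical sub-region was the annectant gyri (ATG) of the parietal lobe at 12 ± 1.46 CPM and its lowest ACG at 4.74 ± 1.31. *FAM19A4* ran only from 1.02 CPM (ATG) to 1.62 CPM (MOG) between cortical sub-regions. The animals differed as well, with a cortical mean of *FAM19A4* from 0.729 CPM in Rhesus 8 to 1.80 CPM in Rhesus 6.

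**Figure D4:**
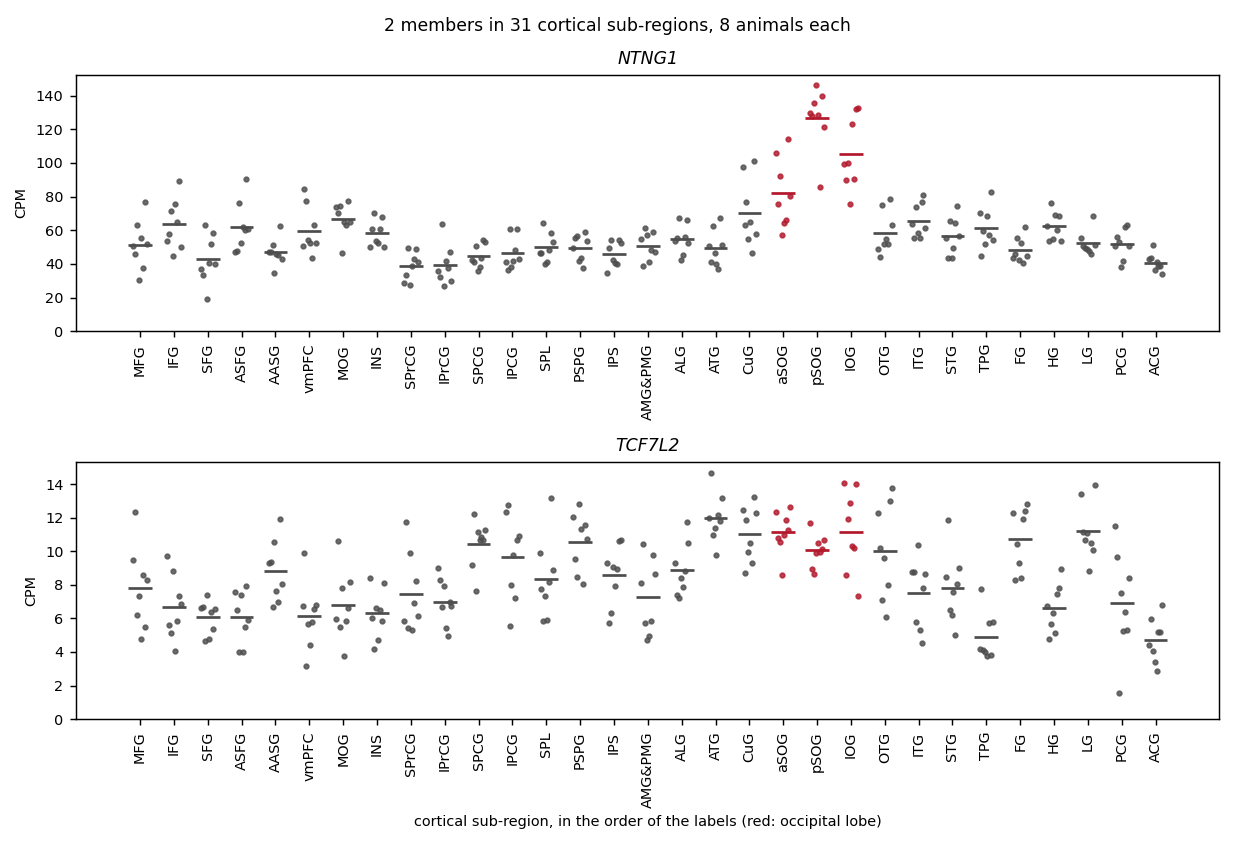
CPM of *NTNG1* and *TCF7L2* in 31 cortical sub-regions, with a point for each of 8 animals and a bar at the mean (red, occipital lobe). *NTNG1* peaks in pSOG at 127 CPM, and *TCF7L2* in ATG at 12 CPM.

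The genes that share a pathway or a role with the members were taken from 10 lists, and the thalamus was compared with the mean of the other 15 groups in edgeR with the animal as a block. Over all 16829 genes tested 2018 were called (12%), 6.45% higher and 5.54% lower, with a median log2FC of -0.06. A log2FC here is against the mean of the log levels of 15 groups, each with the same weight, so a gene can be called higher in THA without being highest there. Of the 94 list genes with an identifier 30 were called higher and 5 lower, and with the 51 sub-regions as groups, which gives the cortex more weight, 25 and 12. The 2 lists of relay neuron genes, made of genes known from the thalamus, held 10 of the higher calls each. The pooled count therefore does not speak for the genes related to the members.

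Of 12 transcription factors of thalamic relay neurons, 10 were called higher and 0 lower, with a median log2FC of 2.26. *LHX9* had 23.8 to 58.0 CPM in THA, or 46.7 ± 10.1, and 7.27 ± 3.99 in the next group, AMY (log2FC 6.49, SE 0.19, FDR 6.70e-56 by edgeR). *GBX2* had 11.4 ± 3.20 CPM in THA and 1.81 ± 1.36 in MO (log2FC 6.44, SE 0.19). *ZIC4* (3.88, SE 0.13) and *ZIC1* (3.45, SE 0.12), factors of dorsal and cerebellar development, were called higher too but ranked behind CB. *LHX2* was called at a log2FC of 1.04, but it ranked 9 of 16 groups, and with the 51 sub-regions as groups, where the cortex weighs more, its log2FC was -1.27 (it is named after its values were seen). Its call was also lost without the animal block (0.97) and without Rhesus 2 (0.97), Rhesus 10 (0.89) or Rhesus 11 (0.95).

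The list of GABAergic factors of the diencephalon, with 6 of 12 genes identified, had 2 called higher and 0 lower. *GATA3* had 6.81 ± 2.29 CPM in THA (log2FC 4.91, SE 0.24) and was higher still in VTA, at 10.1 ± 3.31. *OTX2* had 68.4 ± 23.9 CPM in THA against 32.9 ± 17.1 in VTA (log2FC 4.89, SE 0.22). The median log2FC of the 6 was -0.39.

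**Figure D5:**
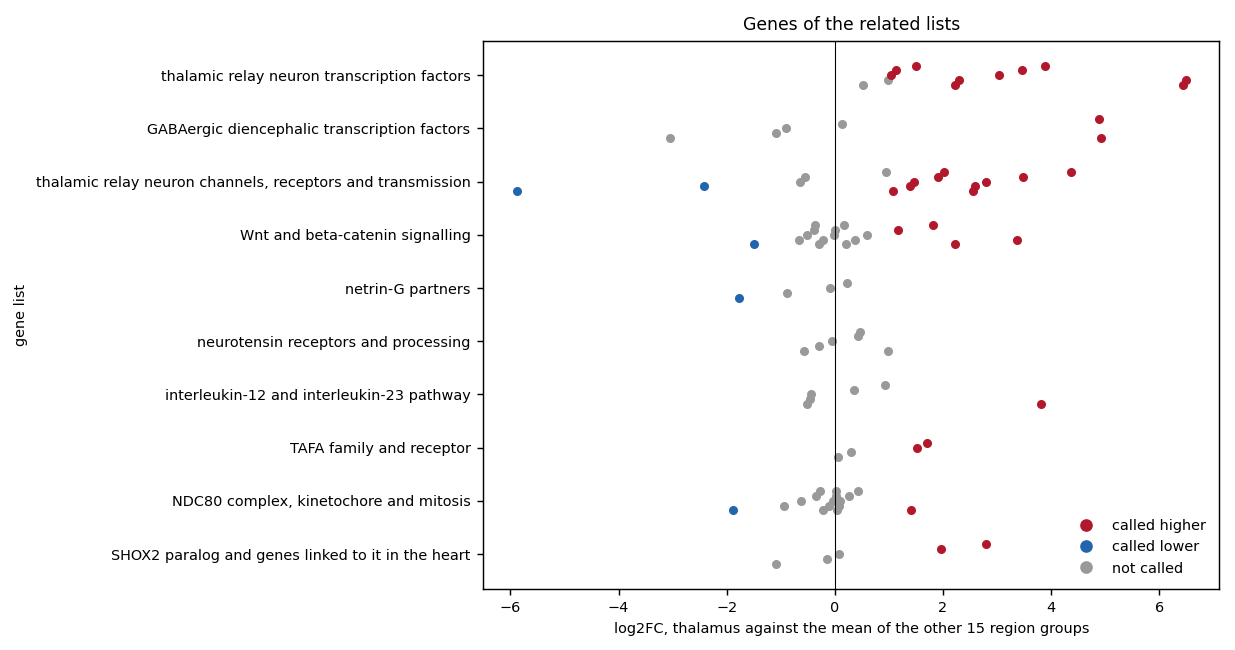
log2FC of the genes of 10 lists, thalamus against the mean of the other 15 region groups (red, called higher; blue, called lower; grey, not called). The relay neuron lists lie mainly to the right of 0, and the neurotensin receptor list has 0 genes called by edgeR with these groups, with *NTSR2* at 0.99.

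Of 15 tested genes for channels, receptors and transmission of relay neurons, 10 were called higher and 2 lower, with a median log2FC of 1.46. *SLC17A6*, the vesicular glutamate transporter of relay neurons, had 827 ± 227 CPM in THA and 437 ± 95.4 in PON (log2FC 4.36, SE 0.16). *CACNA1G* had 344 ± 60.5 CPM and 205 ± 20.2 in CB (3.47, SE 0.12). The pacemaker channel gene *HCN4* (2.79, SE 0.15) was called higher as well. *SLC17A7*, the transporter of cortical excitatory neurons, was called lower with 1.38 ± 0.783 CPM in THA and 1470.5 ± 153 in HIP (log2FC -5.89, SE 0.81). *CACNA1H*, a further T-type channel gene, was also called lower (-2.43, SE 0.24).

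Around *TCF7L2*, 4 of 17 tested Wnt pathway genes were called higher and 1 lower, with a median log2FC of 0.01. *NKD1*, an inhibitor and target of the pathway, had 49.8 ± 10.3 CPM in THA and 18.6 ± 6.18 in the olfactory bulb (log2FC 3.37, SE 0.09, FDR 8.77e-61 by edgeR). *LEF1*, a relative of *TCF7L2*, had 57.5 ± 18.3 CPM in THA and 39 ± 13 in the olfactory bulb (2.22, SE 0.10). The target *SP5* (1.81, SE 0.27), at 1.32 ± 0.602 CPM, and *CTNNB1* (1.17, SE 0.07), which encodes beta-catenin, were called higher. *TCF7*, a further relative, was called lower (-1.50, SE 0.32), at 0.781 ± 0.321 CPM. With the 51 sub-regions as groups *CTNNB1* was at 0.93 and *TCF7* at -0.56, and neither was called.

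Of the 4 partners and relatives of *NTNG1*, 0 were called higher and 1 lower. *NTNG2*, its paralog, was called lower, with 3.60 ± 0.615 CPM in THA and 77.6 ± 6.62 in HIP (log2FC -1.77, SE 0.21). *LRRC4C*, which encodes the ligand of netrin-G1, had 35 ± 6.82 CPM in THA and 110 ± 12.9 in the cortex (-0.88, SE 0.07) and ranked 15 of 16 groups. *LRRC4* (-0.09, SE 0.12) and *LRRC4B* (0.22, SE 0.09) were not called. With the 51 sub-regions as groups *LRRC4C* (-1.36) and *LRRC4* (-1.40) were called lower.

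Of the neurotensin receptors and the enzymes that process the peptide, 0 of 6 were called by edgeR with the 16 region groups, and 1 by DESeq2. The receptor gene *NTSR1* had 0.655 ± 0.473 CPM in THA, 1 to 17 counts per sample, against 50.6 ± 12.3 in SN. *NTSR2*, the receptor of astrocytes, had 52.4 ± 14.8 CPM and lay near the fold limit (log2FC 0.99, SE 0.11, FDR 7.87e-14 by edgeR). It was past the limit and called higher by DESeq2 (1.01), with the size factors of DESeq2 (1.00), with the 51 sub-regions as groups (1.20), without Rhesus 2 (1.09) and without Rhesus 3 (1.06). *SORT1* had 0.856 ± 0.806 CPM. The convertase genes *PCSK1* (58.9 ± 15.3 CPM, log2FC 0.47, SE 0.23) and *PCSK2* (127 ± 16.5 CPM, 0.42, SE 0.19) and the carboxypeptidase gene *CPE* (1516.5 ± 154 CPM, -0.06, SE 0.08) were not called. With the 51 sub-regions as groups *PCSK1* was called lower, at -1.15 (FDR 6.91e-08 by edgeR).

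Around *IL12B*, 1 of 6 tested genes of the interleukin-12 and interleukin-23 pathway was called higher and 0 lower. This was the receptor gene *IL12RB2*, with 7.60 ± 2.5 CPM in THA and 3.44 ± 0.491 in the cortex (log2FC 3.82, SE 0.17, FDR 2.72e-40 by edgeR). *IL12A*, which encodes the other subunit of interleukin-12, had 0 or 1 count per thalamic sample and no test, and it too is named after its values were seen.

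In the TAFA family 2 of 4 tested genes were called higher. *FAM19A1* (log2FC 1.70, SE 0.24) and *FAM19A2* (1.51, SE 0.15) were called but ranked 7 and 6 of 16 groups, and with the 51 sub-regions as groups they were at 0.10 and 0.36 and not called. *FAM19A5* (0.05, SE 0.10) and the receptor gene *FPR1* (0.30, SE 0.17) were not called. *FAM19A3*, at 1.01 ± 0.596 CPM, was not tested.

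Of 16 tested genes of the NDC80 complex, the kinetochore and mitosis, 1 was called higher and 1 lower, with a median log2FC of -0.01. *BUB1*, a checkpoint kinase gene, was higher (1.41, SE 0.17) at 2.97 ± 1.12 CPM. *TOP2A*, a topoisomerase gene of dividing cells, was lower (-1.88, SE 0.45) at 0 to 6 counts per sample. *NUF2*, whose product is the direct partner of NDC80 in the complex, had 0.658 ± 0.336 CPM in THA, ranked 9 of 16 groups and was not called. It is named here after its values were seen.

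Of the list around *SHOX2*, 2 of 5 tested genes were called higher and 0 lower. *BMP4*, a secreted growth factor gene, had 13.2 ± 5.30 CPM in THA and 9.48 ± 2.72 in CC (log2FC 1.96, SE 0.14), and *HCN4* is given above. *TBX3* (2.78 ± 1.02 CPM) and *TBX18* (2.07 ± 0.694 CPM) were not called, *ISL1* had 0 to 3 counts per thalamic sample, and the paralog *SHOX* had 0 counts in all 8.

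The genes most like each member were sought by the Pearson r of mean log2(CPM + 1) over the 51 sub-regions, which share their 8 animals. As each member is high in the thalamus, r is mostly a measure of a like peak there, and it is given with r over the 50 other sub-regions. *GBX2* was among the 3 nearest genes of 4 members (*SHOX2*, *NTS*, *IL12B* and *NDC80*), and *GPR4*, a proton-sensing receptor gene, was the nearest of *SHOX2* (r = 0.94, 0.75 without THA), *IL12B* (0.91, 0.17 without) and *FAM19A4* (0.86, 0.10 without). *GPR4* had 22.1 ± 8.85 CPM in THA and 2.34 in MO. For *NDC80* the nearest was *CASQ2*, a calcium-binding protein gene of muscle stores (0.90, 0.84 without), with 99.4 ± 20.9 CPM in THA and 23.5 in CBC, and the third place behind *GABRR2* (0.90) was that of *GBX2* (0.89).

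For *NTS* the nearest was *VANGL1*, a planar cell polarity gene (0.88, 0.75 without), then *IL1R2* (0.85). *TCF7L2* had *SH2D4A* (0.83) and the collagen genes *COL4A4* (0.83) and *COL4A3* (0.83), both next highest in PIT as *TCF7L2* was. For *NTNG1*, *COPS7A* (0.80), *EPS15L1* (0.79) and *CCDC136* (0.79) were nearest. The third gene of *SHOX2* was *TULP1* (0.90) and that of *IL12B* was *GABRR2* (0.86), and *FAM19A4* had *FAM83B* (0.83) and *NRAP* (0.78) behind *GPR4*. These ranks depended on the settings. With a pseudocount of 0.1 the nearest gene was *MMP15* for *SHOX2*, *GABRR2* for *IL12B* and *GSR* for *FAM19A4*, and 1 to 3 of the 3 nearest genes were shared for each member. With the thalamus left out, and likewise with the Spearman correlation, 0 of the 3 were shared for each of the 7 members.

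Among the members themselves the 21 pairwise r over 51 sub-regions ran from 0.21 (*NTNG1* and *NTS*) to 0.93 (*IL12B* and *NDC80*), with a median of 0.70. Over the 50 sub-regions without the thalamus the median was -0.03, and the range was from -0.60 for *TCF7L2* and *IL12B* to 0.70 for *SHOX2* and *NTS*.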

How the data were processed

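RNA of 51 sub-regions of 8 macaques was sequenced after depletion of ribosomal RNA. Per the labels and the study's methods, the authors trimmed samples of poor read quality with Trim Galore 0.4.4, aligned reads with HISAT2 2.0.5 and counted reads per gene with HTSeq 0.6.1, and the deposited table holds raw counts. Counting options for strand and overlaps were not given in the sources used here, so overlapping, antisense or near-identical genes are uncertain. Midbrain samples, ATAC-seq and assembled transcripts were not used here. Symbols came from an Ensembl identifier table and, for 10 genes including *FAM19A4*, from identifier and name pairs of the study's supplement. Of 109 distinct list genes, 94 had an identifier.

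Counts were summed per animal within 16 region groups and tested with edgeR 4.0.16 (TMM, filterByExpr, quasi-likelihood test, Benjamini-Hochberg FDR) with the animal as a block, which pairs samples of the same animal. Calls needed FDR < 0.05 and an absolute log2FC above 1. Age stage and sex were tested in the 8 thalamic samples at FDR < 0.1. The SE is the absolute log2FC over the square root of F. Alternatives were DESeq2 1.42.0, its size factors, the study's detection rule (a count above 1 in at least 3 samples), an absolute log2FC above 2, no block or covariate, the 51 sub-regions as groups, the hypothalamus sample of Rhesus 6 left out and each animal left out. Thalamic levels without Rhesus 8 were added after seeing the data. The result of 1 gene that the naming rule covers is not reported here. On simulated counts with 200 genes changed 4-fold, the thalamus comparison recovered 200 with 0 other calls (16117 genes tested), the hypothalamus against the cortex 192 with 0 (16079), and age (14707) and sex (14695) 195 each with 4 other calls each. The simulation gave every gene the same dispersion and no animal effect, and it changed only genes that were not lowly counted. It checks that the fits run as meant, and it does not measure their power or error on the real counts.

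The members, lists and tests were chosen with earlier results of these data known. Named genes were the members, all genes of lists of 7 or fewer, up to 4 called genes in each direction of longer lists, and the 3 genes most like each member. Intervals cover the spread between these animals only.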

Additional observations from a re-analysis of the deposited data

Results flagged for a closer look

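In 12 of 112 combinations of a member and a region group, and in 1 of 15 marker lists in the thalamus, the highest or lowest of 8 animals stood apart by Dixon's ratio (above 0.526). For normally distributed values chance sets about 1 in 20 such groups apart. Some of these groups held so few counts that 1 count can set an animal apart, and that rate does not hold for them. The thalamus markers summed to 681 CPM in the thalamus of Rhesus 8 and to 1200 to 1563 CPM in the other animals.

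Rhesus 8 was also apart in the amygdala, where *TCF7L2* had 7.83 CPM against 2.92 to 4.64 in the others and *NTNG1* had 31.1 CPM against 13.1 to 20.2. Its *IL12B* level was 0.241 CPM in the cortex (others 0.0866 to 0.147) and 0.514 CPM in the striatum (others 0.0583 to 0.142). Its *SHOX2* level in the hippocampus, 0.0241 CPM, came from 1 count, and the other animals had 0.

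Rhesus 11 had 8.73 CPM of *TCF7L2* in PA, where the others had 3.82 to 5.55, and 12.3 CPM of *SHOX2* in the VTA, where the others had 0.498 to 4.14. Rhesus 6 had 5.61 CPM of *NTS* in the SN (others 0.462 to 2.73) and 2.27 CPM of *FAM19A4* in the hypothalamus (others 0.376 to 1.02). In PA, Rhesus 3 had 5.00 CPM of *NTS* (others 0 to 0.367) and Rhesus 2 had 0.192 CPM of *SHOX2* (others 0 to 0.0734). Rhesus 4 had 2.36 CPM of *NDC80* in the GP (others 0.283 to 1.05).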

How the results depend on the processing

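The thalamus comparison called 2018 genes, 624 at an absolute log2FC above 2, 2720 under the study's detection rule and 1927 to 2040 with an animal left out. Age calls rose from 1 to 105 with DESeq2 and ran from 0 to 479 with an animal left out. Sex calls rose from 18 to 30 with DESeq2 and ran from 15 to 22. Member calls against the cortex stayed between 37 and 39 with an animal left out, and were 47 under the study's rule. That looser rule also lets *IL12B* be tested, so the 47 are over a larger set of comparisons. The values of *IL12B* under it are not given here. Without the replicate block, that is without pairing samples of the same animal, 1974 genes were called in the thalamus and 38 member comparisons against the cortex, where 37 were called with it.

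With the 51 sub-regions as groups the log2FC in the thalamus changed sign for *FAM19A5* (-0.31), *ISL1* (0.53), *LHX2* (-1.27), *LRRC4B* (-0.0078), *NTSR1* (0.16), *PCSK1* (-1.15), *PCSK2* (-0.24), *SORT1* (0.20) and *TBX3* (0.14). The age log2FC of *NTS* became 0.00417 under the study's rule and 0.00478 without the covariate. *FAM19A4* in the olfactory bulb against the cortex became -0.095 under that rule and -0.013 without the hypothalamus sample of Rhesus 6. The cause was not tested.

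With an animal left out, the log2FC values given next changed sign. The age log2FC ran from -0.13 to 0.15 for *SHOX2* and -0.19 to 0.16 for *NTS*. The sex log2FC ran from -0.71 to 0.091 for *IL12B*, -0.45 to 0.017 for *FAM19A4* and -0.097 to 0.39 for *NDC80*. In the thalamus *FAM19A5* ran from -0.015 to 0.095 and *TBX18* from -0.0091 to 0.17. Against the cortex *SHOX2* ran from -0.65 to 0.48 in the amygdala, -0.034 to 0.94 in the cerebellum and -0.54 to 0.87 in PA. *NDC80* in the hippocampus ran from -0.35 to 0.011, *FAM19A4* in the olfactory bulb from -0.16 to 0.19 and *NTNG1* in the VTA from -0.065 to 0.20. Low counts limit *IL12B* outside the thalamus and *SHOX2* and *NTS* in the cortex.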

Other observations

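Gene order was taken from a RefSeq annotation of another assembly than that of the counts. Of the 14 genes next to the members in it, 6 were found in the count table by symbol. *RSRC1*, next to *SHOX2*, had 163 ± 24.8 CPM in the thalamus (SD, n = 8), the highest of 16 region groups, and 41.5 ± 6.73 CPM in the pons, the next group. *VAV3*, next to *NTNG1*, was also highest in the thalamus, at 91.5 ± 18 CPM against 55.2 ± 10.2 in the SN. *METTL4* and *SMCHD1*, the neighbours of *NDC80*, ranked 6 and 12 of 16 groups, at 13 ± 4.14 and 95.5 ± 21.3 CPM. *EOGT* and *FAM19A1*, next to *FAM19A4*, ranked 6 and 7. Among the genes most like the members, *CASQ2* and *VANGL1* are neighbours, as are *COL4A3* and *COL4A4*. These levels were looked at after the members' values were known and were not tested.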
